A study of Mus musculus with 4 samples.

Results

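The regions described here are dense clusters of neighbouring accessible islands in lymphoid tissue inducer (LTi) cells of mice. Islands of a DNase-seq table were joined along each chromosome when neighbours lay close together, with gaps of up to 12400 bases joined and gaps of 12600 bases or more not joined, and groups of 4 or more islands were kept as clusters. This gave 353 clusters with 1746 of the 16584 islands of the table (10.5%). Members were chosen by the position of the islands and ranked on their summed peak-side read counts, so position and reads are given as descriptions, and nothing the choice used was tested. Of the other islands, 5296 lay in groups of 2 or 3 and 9542 stood alone.

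DNase-seq finds open chromatin from the cuts that the nuclease DNase I makes in accessible DNA, here in LTi cells sorted from Peyer's patches, the lymphoid follicles of the small intestine. The Tcf7-KO mice carried Tcf7fl/fl, a floxed allele of the gene that encodes TCF-1, a transcription factor, together with a Cre recombinase. The Ctrl mice carried Tcf7+/+, and no Cre is named for them. Both groups were C57BL/6 with 2 libraries each, and the labels give neither the age of the mice nor whether animals were pooled. The gate was Lin-CD127+ KLRG1-NK1.1-NKp46-CCR6+, and each library started from 300 cells, treated for 5 minutes with DNase I at 0.3 U. Every island has 1 read count on the peak side and another on the control side, and the labels name the genotype of neither. Tcf7-KO and Ctrl mice are therefore not compared here, no value per library was used, and there is no replicate spread.

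Open chromatin is where transcription factors reach DNA, at promoters and at enhancers that can lie far from the gene they act on. Genes that set a cell's identity, and genes that respond quickly to stimulation, are often surrounded by many enhancers in a row, and stitching neighbouring regions is the usual first step in finding such domains. In gene-dense stretches of the genome, however, a row of open regions can also be a row of promoters. LTi cells are innate lymphocytes that carry lymphotoxin, the signal that starts the formation of lymph nodes and Peyer's patches. TCF-1 binds the TCF/LEF motif and acts in the Wnt pathway and in the development of T cells and innate lymphoid cells.

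The promoters of 10 genes in the clusters are shown to let a reader see the DNA that several of the highest-ranked clusters are built around. Each is the RefSeq sequence (GRCm38.p6, the assembly that mm10 names) from 250 bases before to 50 bases after an annotated transcription start, 300 bases in all, on the strand of the gene, and each overlaps an island of its cluster. Hjurp, Fosb, Ppt2, Daxx and Prdx2 are the leading genes by reads of the 5 highest clusters that have a start in the promoter table. Fos, Junb, Smad3, Ltb and Tnfrsf25 were chosen after their values were seen, because their clusters are described in detail. Capitals mark matches, on either strand, to the motifs TCF/LEF (CTTTGAT or CTTTGTT), AP-1 (TGANTCA), RUNX (TGTGGT), ETS (CCGGAAG), SP/KLF (GGGCGG), NF-kB (GGGA, any 4 bases, then CC) and ROR (TAGGTCA), where N is any base.
Fosb (chr7:19309996-19310295, minus strand): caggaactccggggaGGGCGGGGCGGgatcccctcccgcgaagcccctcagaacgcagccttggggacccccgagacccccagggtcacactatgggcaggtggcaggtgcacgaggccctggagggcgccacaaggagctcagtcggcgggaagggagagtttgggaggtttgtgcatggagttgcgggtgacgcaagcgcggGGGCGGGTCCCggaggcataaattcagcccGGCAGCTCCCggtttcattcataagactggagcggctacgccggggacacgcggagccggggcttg
Fos (chr12:85473640-85473939, plus strand): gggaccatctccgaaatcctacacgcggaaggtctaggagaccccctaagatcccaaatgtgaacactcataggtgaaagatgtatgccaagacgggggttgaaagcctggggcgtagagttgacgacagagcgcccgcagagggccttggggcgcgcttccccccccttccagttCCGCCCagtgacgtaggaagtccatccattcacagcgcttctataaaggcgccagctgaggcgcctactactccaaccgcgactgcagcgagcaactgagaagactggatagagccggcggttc
Junb (chr8:84978699-84978998, minus strand): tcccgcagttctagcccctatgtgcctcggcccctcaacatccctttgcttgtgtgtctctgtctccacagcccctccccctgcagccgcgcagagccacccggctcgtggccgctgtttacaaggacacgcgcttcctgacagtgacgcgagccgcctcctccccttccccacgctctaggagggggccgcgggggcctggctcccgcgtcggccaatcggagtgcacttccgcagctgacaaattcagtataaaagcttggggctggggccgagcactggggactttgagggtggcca
Ltb (chr17:35194257-35194556, plus strand): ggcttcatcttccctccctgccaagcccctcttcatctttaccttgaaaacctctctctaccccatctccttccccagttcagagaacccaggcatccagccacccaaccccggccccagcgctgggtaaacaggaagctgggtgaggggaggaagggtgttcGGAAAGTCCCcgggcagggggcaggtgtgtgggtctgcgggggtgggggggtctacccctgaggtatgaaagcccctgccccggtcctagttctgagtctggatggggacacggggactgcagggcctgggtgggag
Tnfrsf25 (chr4:152115684-152115983, plus strand): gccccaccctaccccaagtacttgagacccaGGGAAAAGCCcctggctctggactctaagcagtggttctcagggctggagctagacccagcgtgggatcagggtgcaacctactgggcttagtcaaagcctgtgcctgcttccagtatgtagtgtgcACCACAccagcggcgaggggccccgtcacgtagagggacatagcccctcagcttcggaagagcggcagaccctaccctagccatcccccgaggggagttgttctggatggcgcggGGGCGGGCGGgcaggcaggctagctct
Smad3 (chr9:63757945-63758244, minus strand): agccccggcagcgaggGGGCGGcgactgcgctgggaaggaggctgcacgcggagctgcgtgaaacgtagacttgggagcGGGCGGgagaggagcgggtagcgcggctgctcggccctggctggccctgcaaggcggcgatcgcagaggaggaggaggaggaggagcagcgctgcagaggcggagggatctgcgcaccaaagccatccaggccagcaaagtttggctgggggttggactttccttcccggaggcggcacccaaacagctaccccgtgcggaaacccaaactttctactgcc
Prdx2 (chr8:84969372-84969671, plus strand): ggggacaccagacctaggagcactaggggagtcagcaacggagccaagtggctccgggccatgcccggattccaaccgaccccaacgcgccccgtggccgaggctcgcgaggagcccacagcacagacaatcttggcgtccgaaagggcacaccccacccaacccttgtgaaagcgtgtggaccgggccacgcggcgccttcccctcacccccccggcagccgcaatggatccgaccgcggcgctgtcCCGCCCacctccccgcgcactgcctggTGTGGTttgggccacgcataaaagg
Daxx (chr17:33909195-33909494, plus strand): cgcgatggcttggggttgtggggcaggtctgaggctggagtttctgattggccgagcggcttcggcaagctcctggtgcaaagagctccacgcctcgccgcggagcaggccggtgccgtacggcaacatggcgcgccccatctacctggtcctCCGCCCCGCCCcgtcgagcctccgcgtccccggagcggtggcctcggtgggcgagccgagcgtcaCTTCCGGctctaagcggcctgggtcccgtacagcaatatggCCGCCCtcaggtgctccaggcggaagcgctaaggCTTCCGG
Ppt2 (chr17:34628230-34628529, minus strand): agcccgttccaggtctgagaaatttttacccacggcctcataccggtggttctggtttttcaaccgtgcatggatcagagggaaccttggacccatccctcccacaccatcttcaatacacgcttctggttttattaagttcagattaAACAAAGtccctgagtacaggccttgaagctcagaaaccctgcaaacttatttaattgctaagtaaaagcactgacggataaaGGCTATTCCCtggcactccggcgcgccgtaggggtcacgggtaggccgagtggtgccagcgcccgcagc
Hjurp (chr1:88277530-88277829, minus strand): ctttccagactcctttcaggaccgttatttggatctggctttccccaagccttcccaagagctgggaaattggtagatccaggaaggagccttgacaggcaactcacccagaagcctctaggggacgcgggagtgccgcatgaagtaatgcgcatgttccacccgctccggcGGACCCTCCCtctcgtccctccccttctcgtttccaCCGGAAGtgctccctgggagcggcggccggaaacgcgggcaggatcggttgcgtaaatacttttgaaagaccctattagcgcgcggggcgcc
None of these windows holds the AP-1 or the ROR motif, and the Junb window holds none of the 7 kinds of motif. The TCF/LEF motif was found in the Ppt2 window, and the RUNX motif in the windows of Prdx2 and Tnfrsf25. SP/KLF motifs stand in the windows of Fosb, Fos, Smad3, Daxx, Prdx2 and Tnfrsf25, with 3 matches in Fosb that partly overlap each other or an NF-kB match. Such a match is a description of the letters and not a binding site.

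The clusters also hold 51 of 1228 miRNA genes (4.15%), in 39 clusters, near the 4.56% of protein-coding genes. Of the 51, 49 matched a mature sequence in the RefSeq table. The 9 mature miRNAs below come from 5 clusters and were chosen after the values were seen, because they are known from blood cells or from Hox clusters or share a seed. Capitals mark the seed (bases 2 to 8), by which a miRNA recognises its targets.
mmu-miR-142a-5p (chr11:87756867-87756887, plus strand): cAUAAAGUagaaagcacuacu
mmu-miR-142a-3p (chr11:87756903-87756925, plus strand): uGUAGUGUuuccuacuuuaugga
mmu-miR-23a-3p (chr8:84208563-84208583, plus strand): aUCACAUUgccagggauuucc
mmu-miR-27a-3p (chr8:84208727-84208747, plus strand): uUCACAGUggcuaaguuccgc
mmu-miR-24-3p (chr8:84208875-84208896, plus strand): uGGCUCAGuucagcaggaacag
mmu-miR-132-3p (chr11:75173723-75173744, plus strand): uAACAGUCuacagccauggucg
mmu-miR-212-3p (chr11:75173443-75173464, plus strand): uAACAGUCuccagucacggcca
mmu-miR-196b-5p (chr6:52230129-52230150, minus strand): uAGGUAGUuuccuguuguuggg
mmu-miR-196a-5p (chr11:96265187-96265208, plus strand): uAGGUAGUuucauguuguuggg
The 3p arms of miR-132 and miR-212, which lie in the same island, share the seed AACAGUC. The 5p arms of miR-196b, in the Hoxa cluster, and of miR-196a, in the Hoxb cluster, share AGGUAGU.

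A typical cluster was short and held few islands. The median cluster spanned 28.4 kb (interquartile range 23.2 to 36.6, full range 10.8 to 100.2), and all 353 spans summed to 11.2 Mb. The median was 4 islands per cluster, 196 clusters had 4, 122 had 5 or 6, and 35 had 7 or more, up to 14. Summed peak-side reads had a median of 95 per cluster (interquartile range 77 to 126, full range 47 to 537), and control-side reads, not scaled, a median of 146 (107 to 207, full range 34 to 1593). The 20 highest clusters held 14.8% of the peak-side reads of all clusters. The island with the most reads held a median of 35.5% of a cluster's peak-side reads, and more than 50% in 32 clusters.

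**Figure D1:**
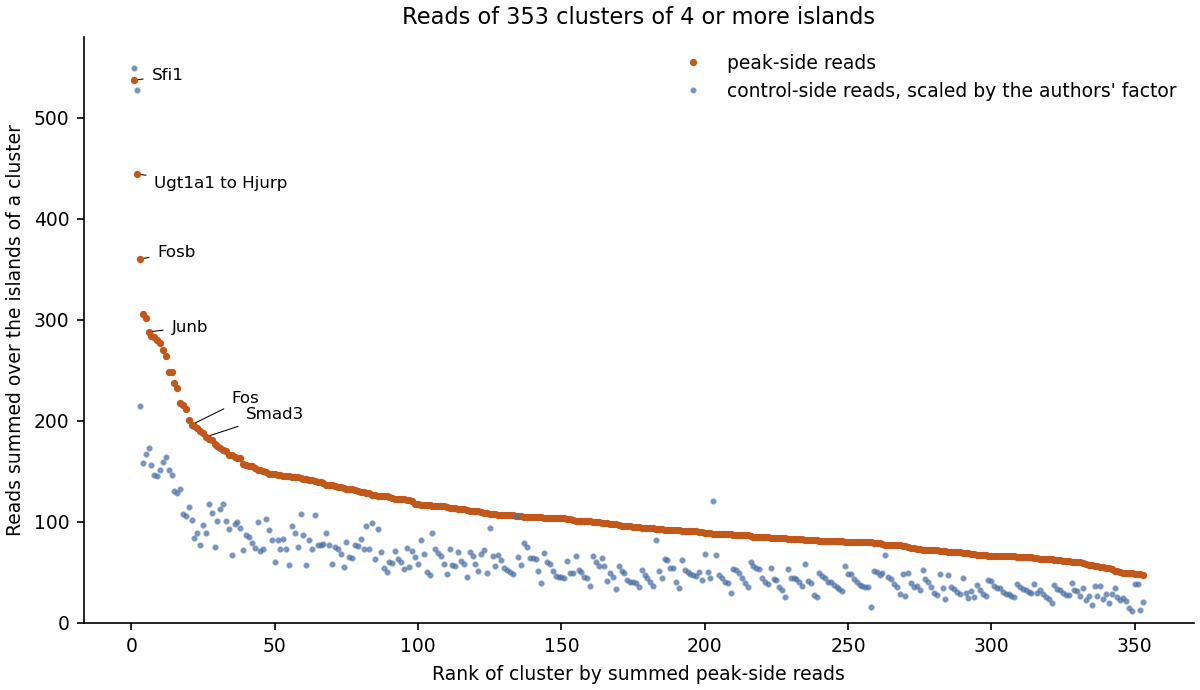
Reads summed over the islands of each cluster (vertical axis) against its rank by peak-side reads (horizontal axis), for 353 clusters. Orange points are peak-side reads, blue points are control-side reads multiplied by the authors' factor of 0.345. The first cluster has 537 peak-side reads and the median cluster 95, and the scaled control side lies above the peak side for Sfi1 and for the cluster from Ugt1a1 to Hjurp, among others.

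Some gaps lay at the edge of the rule, and how many of them decided membership was not counted. Gaps of 12400 bases, the widest joined, separated 49 pairs of neighbours, and gaps of 12600 bases, the narrowest not joined, separated 48 pairs. Just outside the rule stood 500 groups of 3 islands with a median span of 17.6 kb and a median of 58 peak-side reads. Just inside it stood the 196 clusters of 4 islands, with a median span of 24.8 kb and 82 peak-side reads.

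Single islands in clusters had about as many reads as those elsewhere. Islands in clusters had a median of 17 peak-side reads (interquartile range 12 to 26) and islands outside a median of 18 (12 to 27.8). Their median width was 2000 bases in clusters and 1800 bases outside. The fold, peak-side reads over control-side reads times the authors' factor of 0.345, had a median of 1.93 in clusters (interquartile range 1.54 to 2.57) and of 2.01 outside (1.61 to 2.64). Summed over all reads, it was 1.81 in clusters (95% Clopper-Pearson counting interval 1.78 to 1.83) and 1.92 outside (1.91 to 1.93). The intervals cover counting error only, and since no molecular identifiers are named, several reads can stem from 1 molecule. In the authors' deposited table, 1382 islands in clusters (79.2%) and 12268 outside (82.7%) had a false discovery rate (FDR) under 0.05, against 82.3% of all islands. An island that meets that limit is called in what follows. A share this near the background is no result about clusters.

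Folds under 1 made up a larger share in clusters. They were found in 55 islands in clusters (3.15%) and 222 islands outside (1.50%), against 1.67% of all islands. Of the 55, 11 lay in the cluster from Ugt1a1 to Hjurp. No test was made, since neighbouring islands are not independent.

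Clusters held fewer islands at gene starts than the rest of the table. An annotated start of a protein-coding gene lay within 1 kb of 649 islands in clusters (37.2%) and of 7067 islands outside (47.6%). Islands within a gene, away from its ends, made up 24.5% in clusters and 18.9% outside, and islands between genes made up 21.7% in clusters and 19.8% outside. The low share of starts was shared with other grouped islands: it was 40.1% in groups of 2 or 3 and 51.8% in islands that stood alone. Groups of 3, just outside the rule, had 37.2%. The share also did not move in 1 direction with size, at 37.6% in clusters of 4, 35.2% in clusters of 5 or 6 and 40.2% in clusters of 7 or more. Starts were known for 17492 of 21900 protein-coding genes (79.9%), so some islands at a start are counted in another class.

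**Figure D2:**
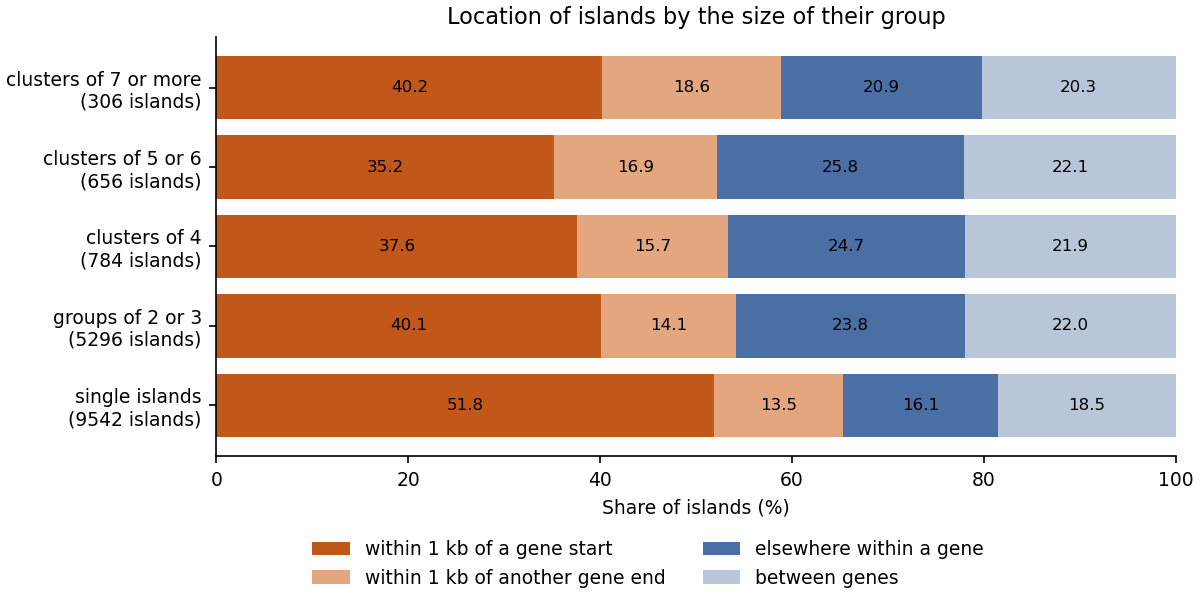
Share of islands (horizontal axis, percent) in each of 4 locations, for 3 sizes of cluster, for groups of 2 or 3 and for single islands. Single islands have the largest share at gene starts, 51.8%, and clusters of 5 or 6 the smallest, 35.2%.

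The fold differed by location, inside clusters and outside. At gene starts the pooled fold was 1.73 in clusters (1.70 to 1.77) and 1.84 outside (1.83 to 1.85). Within genes it was 1.88 in clusters (1.83 to 1.94) and 2.28 outside (2.25 to 2.31). A single broad island within Sfi1 held 1426 of the 11085 control-side and 457 of the 7199 peak-side reads of that class in clusters. The median fold of islands within genes was 2.28 in clusters and 2.49 outside. Between genes it was 1.94 in clusters (1.88 to 2.00) and 2.02 outside (2.00 to 2.04). At other gene ends it was 1.80 in clusters (1.75 to 1.86) and 1.84 outside (1.82 to 1.86). The counting intervals of clusters and of the rest overlap between genes and at other gene ends, and do not overlap at gene starts and within genes. These values rest on the authors' factor. If the control side is instead scaled by the reads of all islands, which sets the whole table to 1, the clusters as a whole had 0.945, on the other side of 1.

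The 353 clusters were grouped by the number of protein-coding genes they touched. In all, 998 genes overlapped a cluster, which is 4.56% of 21900 protein-coding genes and 8.44% of the 11580 that had an island within 1 kb. Of the clusters, 20 touched no gene, 94 touched 1, 129 touched 2 or 3, and 110 touched 4 or more. Islands at a gene start were 58.0% in clusters with 4 or more genes, 35.7% with 2 or 3 genes and 16.7% with 1 gene. The pooled fold was 1.71 (1.68 to 1.75) with 4 or more genes, 1.79 (1.75 to 1.83) with 2 or 3, 2.02 (1.96 to 2.08) with 1 and 1.98 (1.86 to 2.10) with none. A cluster that touches more genes has more starts to meet, so the shares at gene starts follow in part from the grouping itself. Most islands lay at a gene start in 86 clusters, and every island did in 16. No island at a gene start was found in 73 clusters.

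**Figure D3:**
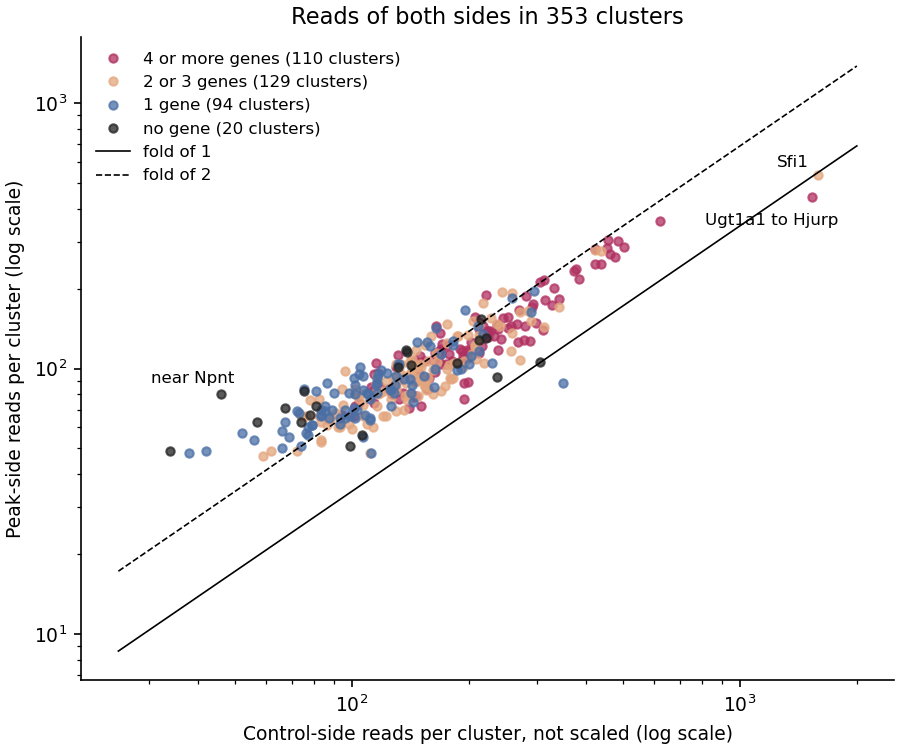
Peak-side reads (vertical axis, log scale) against control-side reads, not scaled (horizontal axis, log scale), for 353 clusters, coloured by the number of protein-coding genes they touch. Lines mark a fold of 1 and of 2 with the authors' factor. The clusters of Sfi1 and from Ugt1a1 to Hjurp lie below a fold of 1, and the cluster near Npnt, at 5.04, is highest.

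The highest sum belonged to a cluster in which 1 island held most of the reads. It lies over Sfi1, a gene for a protein of centrosomes, with Eif4enif1 at its edge (mm10, chromosome 11, 3151401 to 3204200, 52.8 kb), and had 537 peak-side and 1593 control-side reads in 6 islands. One island of 17400 bases within Sfi1 (3182801 to 3200200) had 457 peak-side and 1426 control-side reads of these, or 85.1% of the peak side. Its fold was 0.930 (0.835 to 1.03), and that of the whole cluster 0.978 (0.885 to 1.08). The other 5 islands had 14 to 23 peak-side reads, and the one at the shared start of Sfi1 and Eif4enif1 had a fold of 1.91 (1.08 to 3.32).

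Second came a cluster in which most islands had more scaled reads on the control side. It runs from Ugt1a1, one of a family of glucuronidation enzymes, over Mroh2a and Hjurp, the chaperone that loads the centromeric histone, to Trpm8, a cold-sensing ion channel (chromosome 1, 88211801 to 88309600, 97.8 kb). Its 14 islands had 444 peak-side and 1530 control-side reads, at 0.842 (0.756 to 0.936) when pooled, with 11 of the 14 islands under 1. The island over the start of Hjurp, whose promoter is shown above, had 99 peak-side and 256 control-side reads, at a fold of 1.12 (0.880 to 1.42). An island over the shared end of the Ugt1a genes (88219001 to 88221800) had the lowest fold, 0.512 (0.274 to 0.893), with 15 peak-side and 85 control-side reads. One island of the 14 was called in the authors' deposited table, between Hjurp and Trpm8, with 26 peak-side and 51 control-side reads.

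The third was the cluster of Fosb, a subunit of the transcription factor AP-1 that cells induce within minutes of stimulation (chromosome 7, 19294801 to 19383200, 88.4 kb). It had 360 peak-side and 621 control-side reads in 10 islands, a pooled fold of 1.68 (1.47 to 1.92), and 8 called islands. The broadest island, 11600 bases over the whole of Fosb, had 107 peak-side and 182 control-side reads, at a fold of 1.71 (1.33 to 2.18). Between Fosb and Ercc1, a DNA repair gene, 3 islands that touch no gene had 52, 30 and 23 peak-side reads against 85, 36 and 35 control-side reads. Those islands had folds of 1.77 (1.23 to 2.53), 2.42 (1.44 to 4.04) and 1.91 (1.08 to 3.32) with the authors' factor. At the starts of Ercc1 and of Cd3eap and Ppp1r13l, on the far side, the folds were 0.967 (0.575 to 1.57) and 1.12 (0.719 to 1.70), and neither was called.

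**Figure D4:**
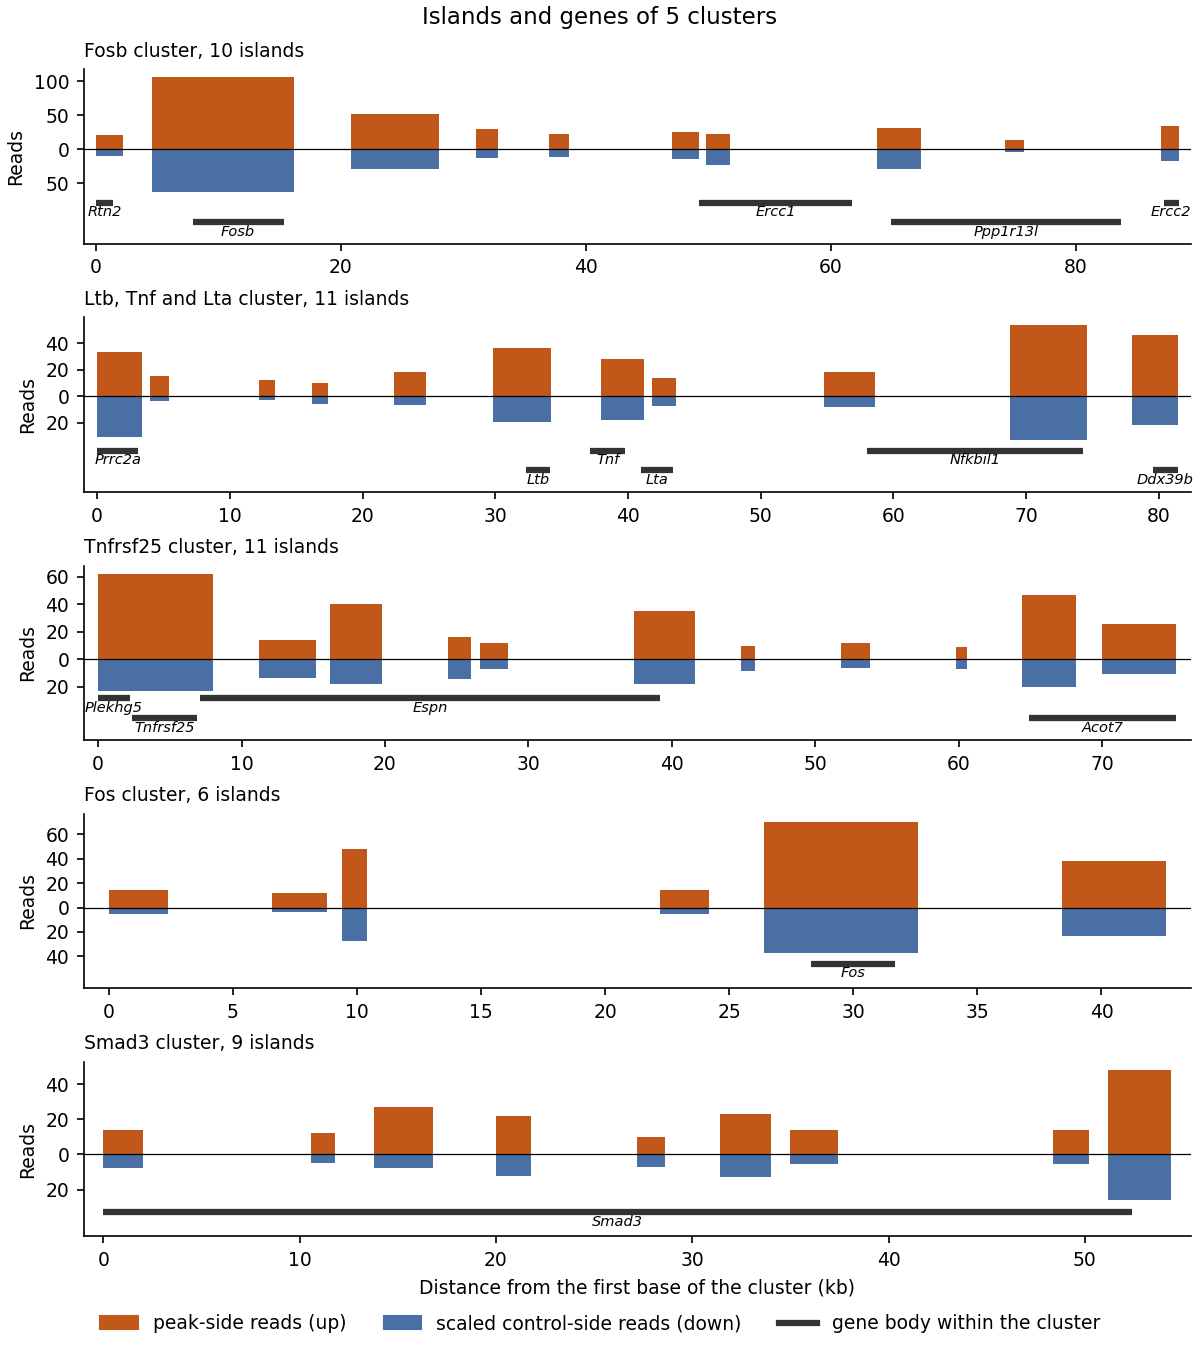
Maps of 5 clusters by distance from their first base (horizontal axis, kb). Each bar is an island drawn to its width, with peak-side reads above the line and control-side reads times the authors' factor below it (vertical axis, reads), and dark lines are gene bodies. Fosb, Fos and Smad3 have islands along and around the gene, and Ltb, Tnf and Lta share 1 cluster.

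Other AP-1 subunits and immediate early genes also lay in clusters, some of them shared with other genes. Junb, whose promoter window has no match to the motifs, shares a cluster with Prdx2, a peroxidase, and Hook2 (chromosome 8, 84965801 to 84998200). It ranked 6th with 288 peak-side and 503 control-side reads and had 8.89 peak-side reads per kb. The island from the end of Prdx2 over all of Junb had 140 peak-side and 236 control-side reads, at a fold of 1.72 (1.39 to 2.13), and the next, which touches no gene, had 59 peak-side and 87 control-side reads, at a fold of 1.97 (1.39 to 2.77). Fos, the founding AP-1 subunit, is the only protein-coding gene in its cluster (chromosome 12, 85445601 to 85488200), which had 196 peak-side and 295 control-side reads in 6 islands, all called, and a fold of 1.93 (1.60 to 2.32). One of the 6 covered Fos, with 70 peak-side and 107 control-side reads, and the 5 others lay between genes on both sides of it, with folds from 1.65 to 3.48.

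Nr4a1, an orphan nuclear receptor induced by antigen receptors and other stimuli, had a cluster with Grasp and Acvr1b, with 193 peak-side and 258 control-side reads, at a fold of 2.17 (1.79 to 2.62). The island over an annotated start at 101266001 to 101267600 of chromosome 15 had 45 peak-side and 42 control-side reads, at a fold of 3.11 (2.00 to 4.85). An island of 7400 bases before Nr4a1 had 72 peak-side and 116 control-side reads, at a fold of 1.80 (1.32 to 2.44). Egr3 and Fosl1 were the remaining members of the list of immediate early genes in clusters, with folds of 1.85 (1.44 to 2.38) and 1.83 (1.36 to 2.44). In all, 6 of 18 genes on this list (33.3%) lay in a cluster, and all 18 had an island. The share was 4.56% over all protein-coding genes and 8.44% over those with an island. Zfp36, which encodes an RNA-binding protein that destroys cytokine mRNAs and is also induced early, led the cluster ranked 17th, with 218 peak-side and 384 control-side reads, at a fold of 1.65 (1.39 to 1.95).

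Clock genes led 2 of the first 10 clusters. Per1, a clock repressor, ranked 9th with 280 peak-side and 422 control-side reads, of which an island over its start had 103 peak-side and 122 control-side reads, at a fold of 2.45 (1.87 to 3.21). Nr1d1, which encodes the nuclear receptor REV-ERB alpha, ranked 10th with 277 peak-side and 439 control-side reads, and the island at its start had 104 peak-side and 138 control-side reads, at a fold of 2.19 (1.68 to 2.84). The whole cluster had a fold of 1.92 (1.65 to 2.24) for Per1 and of 1.83 (1.57 to 2.13) for Nr1d1. Their values differ by less than their counting intervals.

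Among effector genes of LTi cells, the lymphotoxin genes and Tnf shared 1 cluster. Ltb and Lta, which encode the 2 chains of membrane lymphotoxin, and Tnf lie side by side in the major histocompatibility complex (chromosome 17, 35162201 to 35243600). This cluster of 11 islands had 284 peak-side and 453 control-side reads, at a fold of 1.82 (1.56 to 2.11), and 10 of its islands were called. The island over the start of Ltb, whose promoter holds an NF-kB motif, had 36 peak-side and 56 control-side reads, at a fold of 1.86 (1.19 to 2.88). The island from Tnf to Lta had 28 peak-side and 52 control-side reads, with a fold of 1.56 (0.950 to 2.52), and the next one, over Lta, 14 peak-side and 22 control-side reads, with a fold of 1.85 (0.873 to 3.77). More reads lay at other genes of the same cluster, with 54 peak-side and 95 control-side reads at Nfkbil1 and Atp6v1g2, and 46 peak-side and 63 control-side reads at Ddx39b, an RNA helicase. The highest folds, 4.35 in both, lay just beyond the body of Prrc2a and at the start of Aif1, on 15 and 12 peak-side reads. Of 15 genes on the list of effector cytokines and lymphoid organ induction, Ltb, Tnf and Lta were in a cluster (20.0%) and 7 had an island. These 3 are neighbours in 1 cluster, and 4.56% of all protein-coding genes were in a cluster.

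Other clusters of the same region of chromosome 17 ranked 4th and 5th. The 5th spans Daxx, a histone chaperone, Tapbp, which loads peptides on MHC class I, and H2-K1, an MHC class I gene (33907801 to 34000600). It had 14 islands, 9 of them at gene starts, with 302 peak-side and 486 control-side reads, at a fold of 1.80 (1.56 to 2.09). The island over the start of H2-K1 had 22 peak-side and 47 control-side reads, at a fold of 1.36 (0.779 to 2.30), and was not called. The 4th spans Notch4 to Tnxb with Ppt2, Rnf5 and Agpat1 (34586401 to 34686600) and is the longest of all, at 100.2 kb. It had 306 peak-side and 458 control-side reads in 12 islands and a fold of 1.94 (1.67 to 2.24).

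Of 20 LTi and group 3 identity genes, 4 lay in clusters (20.0%, or 22.2% of the 18 with an island). The same shares over all protein-coding genes were 4.56% and 8.44%. Not all 4 are described here, and the clusters were of very different size. Tnfrsf25, the receptor for the cytokine TL1A, lies in the cluster ranked 8th with Espn and Acot7 (chromosome 4, 152113201 to 152188400), with 283 peak-side and 423 control-side reads in 11 islands and a fold of 1.94 (1.66 to 2.26). The first of these covered all of Tnfrsf25 and had 62 peak-side and 66 control-side reads, with a fold of 2.72 (1.90 to 3.91). Il1r1, the interleukin-1 receptor, is alone in a cluster of 4 islands (chromosome 1, 40262801 to 40285000) with 84 peak-side and 75 control-side reads, at a fold of 3.25 (2.35 to 4.50), the fifth highest of the 353. Its islands had folds from 2.71 to 3.82, and all were called. Cxcr5, a chemokine receptor for lymphoid follicles, had 82 peak-side and 121 control-side reads in 4 called islands and a fold of 1.97 (1.47 to 2.62).

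Tcf7 itself had a small cluster. It ranked 326th (chromosome 11, 52265601 to 52298200), with 61 peak-side and 79 control-side reads in 4 islands and a fold of 2.24 (1.58 to 3.17), and 3 islands were called. The 2 islands within 1 kb of its annotated starts had 15 peak-side and 15 control-side reads and 19 peak-side and 38 control-side reads, with folds of 2.90 (1.32 to 6.37) and 1.45 (0.790 to 2.58). These values do not check the deletion, because the table does not separate the genotypes. All 19 listed genes around TCF-1 and Wnt signalling had an island. In clusters were 2 of them (10.5%), near the 8.44% of all protein-coding genes with an island. The other was Tle5, a Groucho-related corepressor, in a cluster with Tle2 and Gna11 that had 143 peak-side and 313 control-side reads, at a fold of 1.33 (1.08 to 1.62).

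Signalling genes and transcription factors lay in further clusters, some around a single gene and others shared with neighbouring genes. Smad3, which carries TGF-beta signals to the nucleus, had 9 islands along 54.4 kb from within the gene to its start (chromosome 9, 63705601 to 63760000), with 184 peak-side and 258 control-side reads, a fold of 2.07 (1.70 to 2.51) and 8 called islands. The start, whose promoter window holds 2 SP/KLF matches, had 48 peak-side and 76 control-side reads, and the 8 islands within the gene had 10 to 27 peak-side reads each. Ets1, a transcription factor of lymphocytes, had 54 peak-side and 56 control-side reads in 4 islands and a fold of 2.80 (1.89 to 4.14), and the island beyond the gene body had 13 peak-side and 5 control-side reads. Socs3 and Cish, feedback inhibitors of cytokine signalling, had folds of 2.14 (1.72 to 2.65) and 1.97 (1.60 to 2.43), in clusters of 7 and 6 islands. Of the NF-kB list, Nfkbie, Cd83, Traf1 and Nfkb1 were in clusters (4 of 18, 22.2%), with folds of 1.80, 2.65, 2.35 and 2.31. All 18 had an island, and 8.44% of protein-coding genes with an island were in a cluster. Icam1, an adhesion molecule, Mcl1, a survival factor, and Ccnd3, a D cyclin, were in clusters with folds of 2.65 (2.01 to 3.48), 1.98 (1.53 to 2.54) and 1.66 (1.24 to 2.20).

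Prex1, an activator of Rac GTPases, was one of 4 genes that touch 2 or more clusters, and a further cluster lay nearby. Those over the gene had 104 peak-side and 132 control-side reads with a fold of 2.29 (1.75 to 2.98) and 49 peak-side and 42 control-side reads with a fold of 3.38 (2.20 to 5.24). The one nearby, 73.7 kb from the gene, had 49 peak-side and 34 control-side reads, at a fold of 4.18 (2.64 to 6.68), the second highest of the 353. Every island of the 3 clusters was called.

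**Figure D5:**
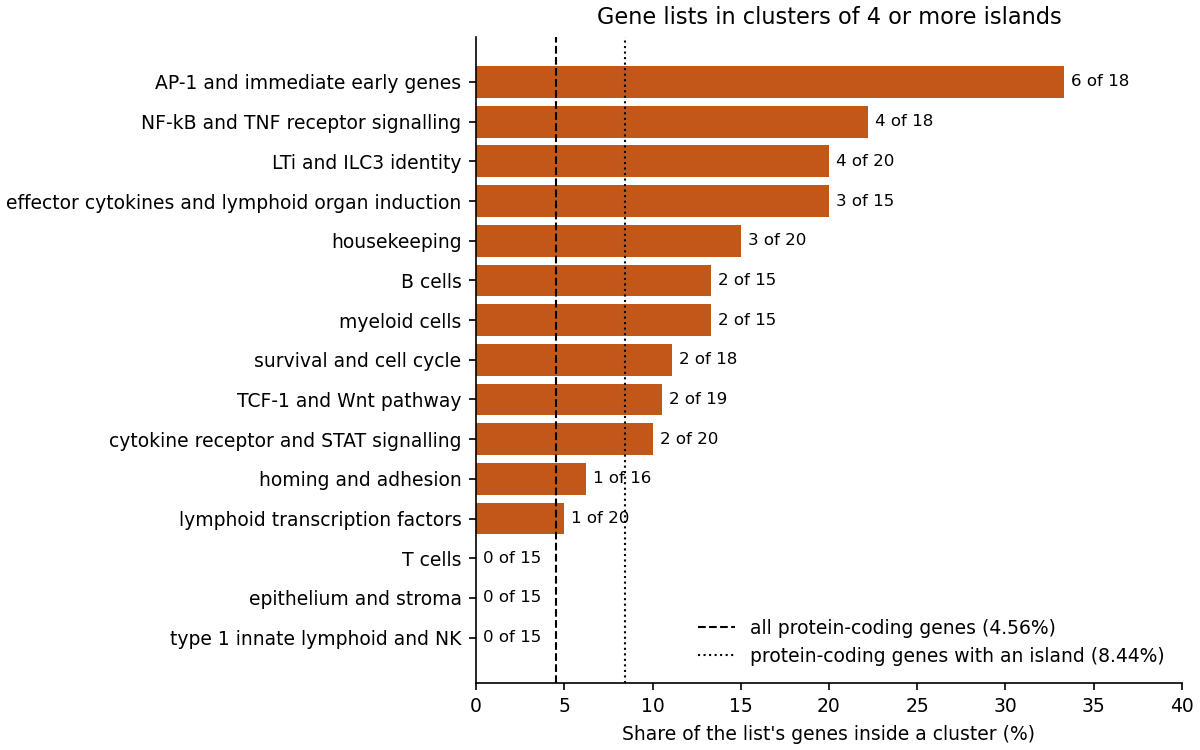
Share of the genes on each of 15 lists that overlap a cluster (horizontal axis, percent), with the number of genes beside each bar. Dashed and dotted lines give the share over all protein-coding genes (4.56%) and over those with an island (8.44%). The list of AP-1 and immediate early genes is highest, at 6 of 18, and 3 lists have none.

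Across all 15 lists, 32 of 258 genes (12.4%) were in a cluster, and of the 195 listed genes with an island 16.4% were. The same shares over all protein-coding genes were 4.56% and 8.44%. The lists were written with earlier results of these data known, and housekeeping genes were also above the background, with 3 of 20 (15%), so an excess over it is not particular to lists of immune genes. One of them was Eef2, a translation elongation factor, in a cluster with a fold of 1.74. Lymphoid transcription factors had 1 of 20, cytokine receptor and STAT signalling 2 of 20, survival and cell cycle 2 of 18, and homing and adhesion 1 of 16. The number depends on how clusters are defined: with clusters of 3 or more islands 60 of the 258 were in one, and with a gap of 5 kb 14 were.

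The labelled cell type was set beside markers of other cells. Over all protein-coding genes, 11580 of 21900 had an island within 1 kb, and of the housekeeping list 20 of 20 had one. An island at a gene therefore does not by itself mark a cell type. Of 20 LTi and group 3 identity genes 18 had an island, and Ccr6, on which the cells were sorted, and Il2rg had none. Markers of natural killer cells and type 1 innate lymphoid cells had an island in 2 of 15 genes and none in a cluster, and Tbx21, Ncr1 and Klrb1c had no island. T cell markers had an island in 6 of 15 and none in a cluster, and Cd3e, Cd3g and Cd8a had no island. That list holds protein-coding genes only. Trac, the constant region of the T cell receptor alpha chain, is not on it and lay in a cluster described below. The islands over Trac or within 1 kb of it numbered 2, with 96 peak-side reads. The list of epithelium and stroma had 6 of 15 and none in a cluster. B cell and myeloid markers had 7 of 15 each, and 2 of each were in clusters. For B cells these were Cd79a, in a cluster with Arhgef1 and Rps19 and a fold of 1.76 (1.40 to 2.20), and Blk, a Src family kinase, the only protein-coding gene of its cluster, with 2.17 (1.55 to 3.02). No island overlapped the body of Cd79a, and the island within 1 kb of it overlaps Arhgef1. Ms4a1 had no island. The myeloid ones were Cebpb and Batf3, with 1.67 (1.21 to 2.30) and 2.64 (1.97 to 3.54), while Csf1r, Lyz2 and Adgre1 had none. The markers of other cells named as lacking an island are examples from their lists. Those that had an island outside clusters are not named here, so the counts and not the names describe each list. The part of other cells in any of these values was not tested. The lowest peak-side count of the table is 8, so the absence of an island does not show closed chromatin.

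Clusters without a protein-coding gene included the highest fold. Of the 20, one lies 7.54 kb from Npnt (chromosome 3, 132855401 to 132874200) and had 80 peak-side and 46 control-side reads, at a fold of 5.04 (3.47 to 7.42). Its 4 islands had 10, 14, 12 and 44 peak-side reads against 1, 12, 5 and 28 control-side reads, and all were called. Another, 39.4 kb from Runx3, a transcription factor of innate and cytotoxic lymphocytes, had 67 peak-side and 78 control-side reads, at a fold of 2.49 (1.77 to 3.50). At the T cell receptor alpha locus, a cluster of 11.8 kb began over the constant region (Trac) and ran on beyond it, with 117 peak-side and 138 control-side reads, at a fold of 2.46 (1.91 to 3.17). At 9.92 peak-side reads per kb it was second in density to Sfi1, with 10.2. The lowest fold without a gene was on chromosome Y, 1.00 (0.798 to 1.26), with 106 peak-side and 306 control-side reads, and none of its 4 islands was called.

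The miRNAs shown above lie in clusters with and without protein-coding genes. Mir142, named for a miRNA of blood cells, lies in the cluster of Tspoap1 and Supt4a (chromosome 11, 87736401 to 87771400), ranked 22nd, with 195 peak-side and 243 control-side reads in 7 islands, all called, and a fold of 2.33 (1.92 to 2.82). The island over the miRNA (87756801 to 87759000) had 13 peak-side and 14 control-side reads, fewer than those on either side, with 41 peak-side and 58 control-side reads before it, and 36 peak-side and 31 control-side reads after it. Mir23a, Mir27a and Mir24-2 lie in a cluster without a protein-coding gene (chromosome 8, 84182601 to 84209200) with 130 peak-side and 221 control-side reads, at a fold of 1.71 (1.36 to 2.13). The island over all 3 had 10 peak-side and 12 control-side reads, and the strongest of the cluster, with 60 peak-side and 70 control-side reads and a fold of 2.49 (1.73 to 3.56), lay at 84195201 to 84199000. Mir132 and Mir212 share an island with 21 peak-side and 36 control-side reads in the cluster of Hic1, which had a fold of 1.50 (1.22 to 1.84).

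Gene families that lie in rows also formed clusters. The Hoxa cluster from Hoxa3 to Hoxa11, with Mir196b, had 190 peak-side and 222 control-side reads in 10 islands, 9 of them called, and a fold of 2.48 (2.03 to 3.03). The Hoxb cluster from Hoxb3 to Hoxb9, with Mir196a-1, had 96 peak-side and 117 control-side reads in 6 islands and a fold of 2.38 (1.80 to 3.14). Replication-dependent histone genes of chromosome 13 formed a cluster of 11 islands with 15 protein-coding genes, the most of any cluster, and 188 peak-side and 280 control-side reads, a fold of 1.95 (1.61 to 2.35). Transfer RNA genes were in clusters in 62 of 430 cases (14.4%), and lncRNA genes in 219 of 12731 (1.72%), beside 4.56% of protein-coding genes. Several transfer RNA genes can be neighbours at 1 island, as at 69120601 to 69126200 of chromosome 11 in the Per1 cluster. The 62 are therefore not independent. These families and the counts by kind of RNA were chosen after the values were seen.

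Places 11 to 20 of the ranking were taken by gene-dense clusters. They hold Kcnn1 and Arrdc2, Atp5d and Midn, Eif5a and Neurl4, Carns1 and Ppp1ca, Mogs and Htra2, Fzr1 and Hmg20b, Zfp36 and Paf1, Rassf1 and Hyal2, Ell, and Tut1 and Eef1g. Each touches 4 to 11 protein-coding genes. From the third place to the 20th, the folds ran from 1.61 (Atp5d) to 2.01 (Ell), and the counting intervals of these 18 clusters all overlap each other.

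Clusters were spread unevenly over the chromosomes. Chromosome 11 had 48 clusters, the most, and 16.1% of its islands were in one. Among the autosomes the share was also high on chromosome 19, at 16.3%, and on chromosome 17, at 15.4%, and it was lowest on chromosomes 18 and 16, at 3.53% and 4%. Chromosome X had 239 islands and no cluster.

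Promoters with an island in a cluster were close in base composition to promoters with an island elsewhere. The median GC content of the 300-base windows was 60.7% for 849 windows in clusters and 62.3% for 9130 windows with an island outside, against 50.3% for 11284 windows without an island. CpG dinucleotides numbered 6.67 per 100 bases in clusters, 7.67 outside and 1.33 without an island. The TCF/LEF motif was found in 6.24% of windows in clusters, 5.54% outside and 8.06% of all 21263 windows. The AP-1 motif was in 5.06% of windows in clusters, 3.73% outside and 6.99% of all windows, and the NF-kB motif in 28.7% in clusters, 26.8% outside and 23.0% of all. The RUNX motif was in 12.4% in clusters, 11.4% outside and 15% of all, and the ROR motif in 2.36% in clusters, 1.52% outside and 2.32% of all. ETS and SP/KLF motifs were in 19.0% and 68.0% of windows in clusters, 20.6% and 69.1% outside, and 11.6% and 46.2% of all windows. No test was made, since windows of a gene can overlap and the letters follow base composition. The sequence of islands away from gene starts was not used here.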

How the data were processed

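DNase-seq of 2 Tcf7-KO and 2 Ctrl libraries is represented by 1 table of islands. Per the submitters' processing notes, Bowtie2 2.4.2, SICER 2.0 and mm10 were used. SICER joins enriched 200 bp windows into islands. Per the file headers, the authors deposited 1 read count per side without normalization, a p-value, a fold and an FDR for each island. The fold is the ratio of the sides with the control side times 0.345. No header gives this factor, which was derived here from the deposited counts and folds and is called the authors' factor. The 425134 peak-side and 645087 control-side reads are sums over islands. Library depth is not given in the sources used here. Of the deposited folds, 16573 of 16584 were recomputed within 1e-06. The other 11 have 0 control-side reads, and none is in a cluster.

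Stitching, pooled folds and Clopper-Pearson intervals (95%) were computed with Python 3.11.15, numpy 2.4.6, pandas 2.3.3 and scipy 1.17.1, and tested on simulated data. Genes, starts and miRNAs came from RefSeq tables of GRCm38.p6. A gene is in a cluster if its body overlaps it. Genes were named by fixed ranks: the 20 highest clusters, the 5 most extreme by islands, span, density and fold, the Tcf7 cluster, and up to 6 clusters per list. Within a cluster, up to 4 genes were taken by reads, and other genes are named as chosen after their values were seen. The members and lists were chosen with earlier results of these data known. Some genes, and the gene that drives the Cre, are not reported here. The planned model of counts per library was not run, because the columns name no library. Alternatives were other gaps, cluster sizes, FDR and read limits, scalings and rankings.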

Additional observations from a re-analysis of the deposited data

How the results depend on the processing

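The ranking and the fold rest on 1 read count per side. Every number of clusters follows the stitching rule, and 60 of 71 alternative values moved by more than counting error or by over 1.5 times, while 11 stayed within these limits. The following values are the number of clusters, their share of islands, their share of peak-side reads, the pooled fold, the share of cluster islands at a gene end (48.9% as reported), the protein-coding genes in clusters and, where given, the listed genes in clusters. A gap of 5 kb gave 70 clusters, 1.98%, 1.78%, 1.69, 45.6%, 156 genes and 14 listed genes. A gap of 25 kb gave 815, 27.9%, 23.9%, 1.86, 52.1%, 3027 and 79. Clusters of 3 or more gave 853, 19.6%, 18.2%, 1.84, 48.3%, 1903 and 60, and clusters of 6 or more gave 81, 3.51%, 3.28%, 1.71, 53.4%, 361 and 13. Only islands with FDR under 0.05 gave 201, 6.95%, 5.76%, 2.11, 45.7% and 526, and FDR under 0.01 gave 95, 3.99%, 3.19%, 2.27, 43.1% and 213. Only islands with 20 or more peak-side reads gave 22, 1.38%, 1.23%, 1.62, 62.0% and 77. Without islands at gene ends there were 87, 5.40%, 4.52%, a fold of 1.86 and 63 genes.

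With the control side scaled by the reads of all islands the pooled fold was 0.945, and the Hjurp and Sfi1 clusters had 0.440 and 0.512. That scaling sets the whole table to 1, and with the authors' factor clusters had 1.81 and all islands 1.91. With that factor and without the clusters with a fold under 1, the pooled fold of clusters was 1.86. Gene ends within 2 kb gave 56.0%, and genes wholly inside a cluster numbered 570. Of the 20 highest clusters, 6 were also highest by peak-side reads per kb, 13 by number of islands, 13 with a gap of 25 kb and 8 with a gap of 5 kb. By control-side reads 17 were shared, by peak-side minus scaled control-side reads 15, and without the highest island of each cluster 17. Leaving out chromosomes X and Y moved no value beyond these limits. The listed genes, the single-cluster folds, the removal of clusters under 1 and of the highest island were added after seeing the data. The causes of these shifts were not tested. No paired analysis was possible because neither read column names a library or a replicate, and for the same reason comparisons of genotypes, fits without single replicates and other count models were not run.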

Other observations

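Clusters with genes of immune signalling that the text has not yet described were found lower in the ranking, and were chosen after their values were seen. Thy1, a surface protein of T cells and innate lymphoid cells, was the only protein-coding gene of a cluster on chromosome 9 (44018801 to 44045000) with 68 peak-side and 73 control-side reads in 4 islands. One of the 4, with 11 peak-side reads, lay within 1 kb of Thy1, and all 4 lay within 1 kb of the lncRNA gene Gm39323. The pooled fold of the cluster was 2.70 (1.91 to 3.81), a value of all 4 islands together, and 1 of them had a fold under 1. The authors' deposited table calls 3 of the 4. The cluster of Csk, a kinase that restrains Src family kinases, had 99 peak-side and 186 control-side reads in 6 islands, at a fold of 1.54 (1.20 to 1.98). The cluster of Coro1a, an actin regulator of leukocytes, had 70 peak-side and 136 control-side reads, at a fold of 1.49 (1.10 to 2.01). The cluster of Id3, an inhibitor of E proteins, had 48 peak-side and 112 control-side reads and 1 called island of 4. Its fold was 1.24 (0.867 to 1.76), and with the authors' factor this interval includes 1. Mir146b, a miRNA known as a brake on innate immune signalling, lies between islands of the Cuedc2 cluster, which had 76 peak-side and 139 control-side reads, at a fold of 1.59 (1.18 to 2.11).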
